A study of Mus musculus with 20 samples.

Results

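The response of wild-type mouse embryonic fibroblasts to interferon was read as the share of edited reads at 6911 known RNA editing sites. These are the sites, of 48425 listed for the whole series, that had at least 50 reads in each of the 4 libraries of the line labelled ADAR1_WT. They make up 14.3% of the listed sites and lie in 312 genes or intergenic loci, where intergenic sites within 5 kb of each other count as 1 locus. The study amplified 557 loci from cDNA of several embryonic fibroblast lines, pooled the products of each sample and indexed them in a 15-cycle PCR. The treated group is ADAR1_WT cells given interferon (2 libraries), and it was set against ADAR1_WT cells left untreated (2 libraries). The sources used here do not give the interferon's type, dose or duration, or the strain and age of the embryos. The other lines, each with 2 interferon-treated and 2 untreated libraries, carry the genotypes ADAR2_NULL, STAT2_NULL, P150_KO and ADAR1_NULL. Each genotype is a single line. The wild-type label refers to ADAR1 and does not call the line a matched control of any other. The assay reads editing and not transcript amounts, and none of 8 fibroblast marker genes has a covered site, so the labelled cell type could not be checked. Of 12 markers of immune cells, neurons and epithelium, the epithelial Cdh1 had covered sites.

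A-to-I editing converts adenosine to inosine within double-stranded RNA, and inosine is read as guanosine in cDNA. The enzymes are ADAR1 and ADAR2. ADAR1 is made as a constitutive short form, p110, and as a longer form, p150, transcribed from an interferon-inducible promoter. Many edited sites lie in the 3′ UTRs of mRNAs, where inverted repeats fold back into long duplexes, and edited adenosines there come in clusters. A smaller set of sites lies in coding sequence, where inosine is decoded as guanosine and can exchange an amino acid.

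Total coverage summed over sites was 5111796 and 4697335 reads in the treated libraries and 5138827 and 5517435 in the untreated ones. A level is the number of edited reads divided by all reads over the site, in percent, and a difference is in percentage points, treated minus untreated. The reads carry no molecular identifiers, so errors from read counts alone understate the uncertainty. Whether replicate libraries stem from separate cultures is not stated, so p-values measure library-to-library spread that may be purely technical. Neighbouring sites of an amplicon share reads and are not independent of each other.

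Interferon-treated wild-type cells held several times more editing than untreated ones. Over all 6911 sites the mean level was 2.53% and 2.90% in the treated libraries, against 0.768% and 0.748% in the untreated libraries, a difference of 1.96 points (SE 0.184). Most of these sites were hardly edited at all: 5688 fell below a mean level of 1% over the 4 libraries, with a median of 0.179% treated and 0.153% untreated. The other 1223 sites, in 206 loci, averaged 14.1% ± 1.40 in treated and 3.26% ± 0.126 in untreated cells (SD, n = 2 each), a ratio of 4.33 and a difference of 10.9 points (SE 0.992). Both treated libraries lay above both untreated ones, and the exact two-sided permutation p was 0.33, the smallest that 2 libraries against 2 can give.

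These 1223 sites were tested one by one with edgeR's quasi-likelihood test on edited and unedited reads, with Benjamini-Hochberg adjustment and a call at an adjusted p under 0.05. The test called 502 sites, or 41% of those tested. Of these, 494 rose with interferon (40.4%, in 115 loci) and 8 fell (0.654%, in 7 loci). The sites that rose gained a median of 11.9 points, with quartiles of 6.14 and 29.0 and a range of 1.69 to 81.2 points. Both treated libraries lay above both untreated ones at 492 of the 494, and at 65.7% of all tested sites, against 3.92% with both treated libraries below. Over all 6911 sites these shares were 21.5% and 7.7%. The minimum level of 1% is a mean over treated and untreated libraries, which favours sites that rise. With the minimum set on untreated libraries alone, 125 of 666 sites (18.8%) rose and 7 (1.05%) fell. The spread behind these tests was estimated over all 20 libraries of the series. With the wild-type libraries alone 109 sites were called, all 109 higher, while 231 of the 494 were called whichever 1 wild-type library was left out.

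**Figure D1:**
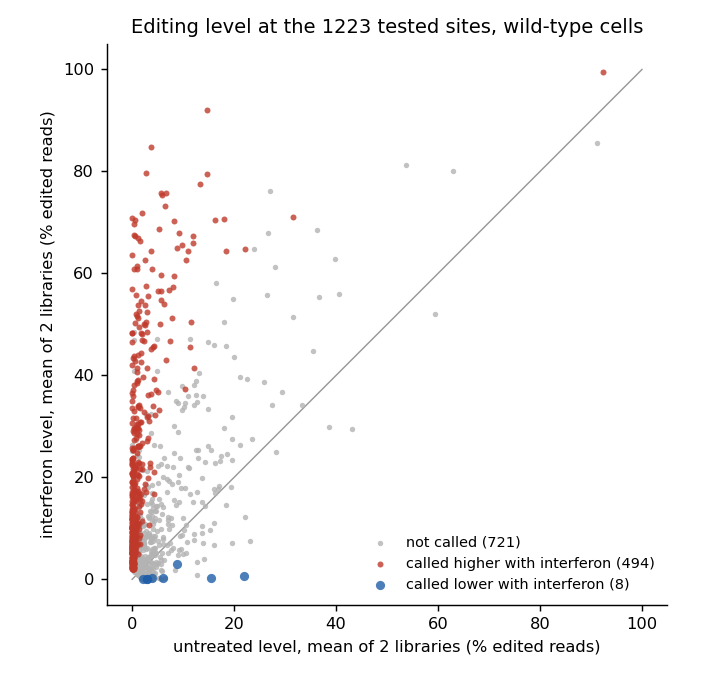
Mean editing level (percent of reads edited) of each of the 1223 tested sites, with interferon on the vertical axis and untreated on the horizontal axis, both means of 2 libraries; the line marks equal levels. The 494 sites called higher (red) lie mostly near the left edge, where the untreated level is low, and the 8 called lower (blue) lie along the bottom.

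Strongly edited sites were few without interferon. With interferon, 64 sites in 33 loci had at least 50% edited reads in both libraries, against 5 sites in 5 loci in both untreated libraries. At 20% the counts were 210 sites in 73 loci with interferon and 26 sites in 21 loci without it. At 5% they were 533 sites in 126 loci and 137 sites in 64 loci. Treated libraries also differed more from each other in points: the median gap over tested sites was 4.18 points between the treated libraries and 0.676 points between the untreated ones. At 38 of the 494 sites that rose the treated libraries stood more than 20 points apart, and at 412 they stood closer to each other than the groups did.

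Sites that rose were found in many transcripts, and the share of a transcript's tested sites that rose varied widely. A site under 1% untreated enters the test only if it is higher with interferon. The shares given here therefore hold for tested sites and not for covered ones. All 35 loci with 10 or more tested sites had at least 1 site that rose, as did 69 of the 81 loci with 5 or more. In 24 loci every tested site rose, but only 3 of these had 5 or more tested sites and only 1 had 10 or more. In 3 loci sites moved in both directions. The 11 genes with the most sites higher held 169 of the 494 (34.2%) among 285 tested sites, all in 3′ UTRs. They were Gnl3l (19 of 23 tested sites), Slc35e2 (19 of 28), Mad2l1 (18 of 39), Iqgap1 (18 of 18), Bri3bp (17 of 33), Gla (16 of 27), Dnajc1 (15 of 33), Slfn5 (13 of 15), Trove2 (12 of 15), 2900026A02Rik (11 of 33) and Ankrd28 (11 of 21). Calls that survived the loss of any 1 wild-type library numbered 13 in Gnl3l, 14 in Iqgap1, 13 in Slfn5, 12 in Bri3bp and 8 in Trove2. They numbered 8 in Slc35e2, 8 in Gla, 6 in Mad2l1, 5 in 2900026A02Rik, 4 in Dnajc1 and 1 in Ankrd28. Without the first untreated library the counts were 11 in Slc35e2, 7 in Dnajc1, 7 in 2900026A02Rik and 3 in Ankrd28. Without the second untreated one they were 12 in Slc35e2, 9 in Mad2l1, 10 in Gla and 6 in Ankrd28. Ankrd28 kept 5 without the first treated library, and Mad2l1 kept 10 without the second.

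Slfn5, a Schlafen family gene known to be induced by interferon, was close to unedited in untreated cells and heavily edited in treated ones. Its 15 tested sites, of 28 covered, lie within 96 bases of the 3′ UTR on chromosome 11. Most of them had an untreated mean under 1%, so the minimum level admitted these only if they were higher with interferon. Of the 15 tested sites 13 rose. The highest, at position 82776157, had 66.1% and 75.7% edited reads with interferon and 0 of 605 reads without it, which allows a level of up to 0.496%, a difference of 70.9 points (SE 4.79, adjusted p = 0.000252). The adenosine directly beside it, at 82776158, had 10.5% and 14.6% in treated libraries and 0% in both untreated ones (adjusted p = 0.00405). These adjacent adenosines stood far apart in both treated libraries. The same contrast stood at 82776121, with 7.98% and 8.25% treated and 0% untreated, and its neighbour 82776122, with 65.8% and 75.1% treated and 0.31% and 0.707% untreated. Reads over the Slfn5 amplicons were 167 and 152 per 1000000 reads of the library in treated cells and 62.9 and 51.3 in untreated cells, so this locus also gave more product after treatment. Its part in the levels was not tested.

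Gnl3l, a nucleolar GTPase gene, combined a low untreated level with a clear rise on all but a few tested sites. Across 110 bases of its 3′ UTR on chromosome X, position 147420072 had 62.8% and 67.0% edited reads with interferon, against 8.86% and 8.71% untreated (56.1 points, SE 2.11, adjusted p = 0.000407). Position 147420066 had 64.8% and 66.3% treated and 7.6% and 11.8% untreated, and 147420040 had 53.1% and 46.8% treated and 2.22% and 2.79% untreated. At all 3 the libraries of a group lay within 7 points and the groups were far apart. The tested site that moved least, 147420015, had 1.03% and 2.1% treated and 0.766% and 0.299% untreated (adjusted p = 0.177). All 23 tested sites of Gnl3l, of 31 covered, had a higher mean with interferon. The median of their untreated means was 0.533%, and a site under 1% was tested only if it was higher with interferon. Their shared direction was therefore partly set by the minimum level.

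Iqgap1, a scaffold of the actin cytoskeleton, was edited to lower levels. Its treated libraries lay close together at some sites and apart at others, as at 87857167 with 6.37% and 2.65%. All 18 tested sites on chromosome 7, of 53 covered, rose, by 1.69 to 21.1 points. Most of the 18 had an untreated mean under 1%, so the minimum level admitted them only if they were higher with interferon. Position 87857170 had 22.0% and 21.6% edited reads in treated cells and 0.819% and 0.645% in untreated cells (21.1 points, SE 0.214, adjusted p = 3.52e-06). It was read at least 6594 times in each library. It is part of a run of consecutive listed positions, 87857166 to 87857172, all 7 of which rose, and its next neighbour 87857171 had 4.09% and 7.27% treated and 0.0758% and 0.0365% untreated. The call at 87857262, the smallest rise of this gene, was lost without the second untreated library (adjusted p = 0.0521).

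Trove2, whose RefSeq symbol is Ro60 and whose product binds small structured RNAs, held a strongly edited site and weakly edited ones side by side. On chromosome 1, position 145602508 had 71.9% and 88.3% edited reads with interferon and 74.4% and 51.6% without it, which overlap (adjusted p = 0.385). Only 5 bases away, 145602513 had 49.3% and 63.8% treated and 5.48% and 5.98% untreated (50.8 points, SE 7.27, adjusted p = 0.00607). The first of these sites was picked out after its values were seen. Of the 15 tested sites of Trove2, of 20 covered, 12 rose. Most of the 15 had an untreated mean under 1% and were likewise tested only if higher with interferon.

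Mmgt1, which encodes a subunit of the endoplasmic reticulum membrane complex, came close to complete editing. Position 53840820 on chromosome X had 87.6% and 96.6% edited reads in treated cells and 15.5% and 13.7% in untreated cells (77.5 points, SE 4.59, adjusted p = 0.000209). All 7 tested sites, of 14 covered, rose, and the 6 others ended between 3.39% and 80% in the treated libraries. The next base, 53840821, had 80% and 79.5% treated but only 3.14% and 2.12% untreated. The greatest rise of any site was in the RIKEN-named gene 2900026A02Rik, at chromosome 5 position 113516516, with 82.9% and 86.8% treated and 2.27% and 5.02% untreated (81.2 points, SE 2.42, adjusted p = 0.000196).

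**Figure D2:**
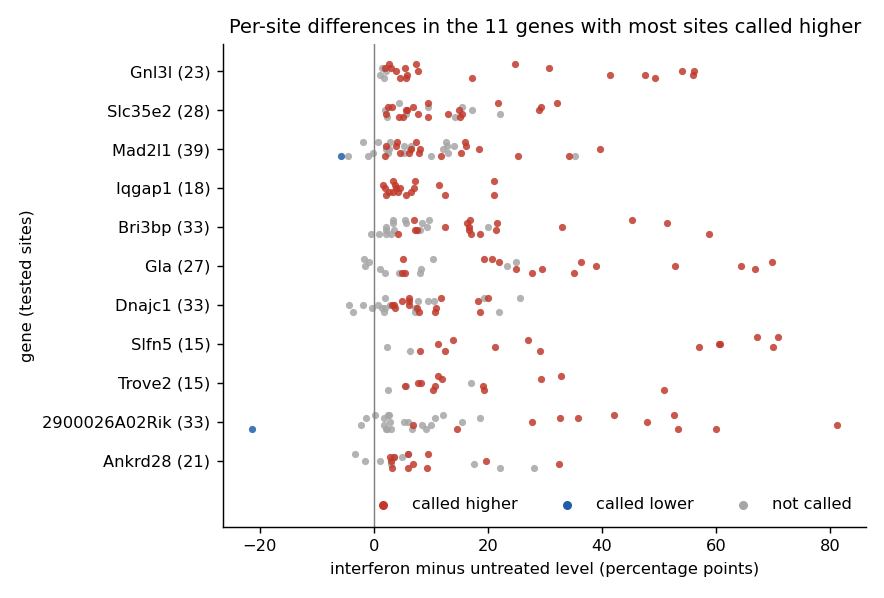
Interferon minus untreated level (percentage points) at every tested site of the 11 genes with the most sites called higher, 1 row per gene with its number of tested sites; red points were called higher, blue lower and grey neither. In Iqgap1 all 18 tested sites, of 53 covered, were called higher, while Mad2l1 and 2900026A02Rik each hold 1 site called lower.

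Neighbouring tested sites were set side by side by the gap between their differences. For 668 pairs 1 to 10 bases apart the median gap between their differences was 7.24 points, and in 222 of these pairs 1 site was called higher and the other was not. At 11 to 50 bases apart the median gap was 5.93 points (255 pairs), at 51 to 200 bases 4.39 points (61 pairs) and beyond 200 bases 4.30 points (33 pairs). These are descriptions over sites that share reads, and the pairs come from different genes at different distances.

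Gene groups were described by their counts, and over all tested sites 40.4% rose. The lists were drawn up with earlier results of these data known. A share above 40.4% is therefore no evidence about a pathway. The secretory pathway and lysosome genes had 53 of 95 tested sites higher and none lower, with a median difference of 7.87 points, against 5.27 points over all tested sites. In Gla, the lysosomal alpha-galactosidase, position 131123831 on chromosome X had 74.2% and 69.4% edited reads with interferon and 3.88% and 0% untreated (adjusted p = 0.00190). In Rragd, a Rag GTPase that signals nutrient state at the lysosome, 7 of 9 sites rose and all 7 calls held without any 1 library. Its position 33107396 on chromosome 4 had 69.0% and 52.5% treated and 5.45% and 2.26% untreated (adjusted p = 0.00444). Sdf4, a calcium-binding protein of the Golgi, had 72.4% and 62.5% treated and 0.498% and 0.743% untreated at chromosome 4 position 155384775 (adjusted p = 0.000198).

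The DNA repair and cell cycle genes had 37 of 86 sites higher and 1 lower, with a median difference of 7.02 points, and 23 higher without the first untreated library. Mlh3, a mismatch repair gene, had 83.1% and 68.6% edited reads with interferon and 8.59% and 2.77% without it at chromosome 12 position 86576054 (70.2 points, SE 7.81, adjusted p = 0.000699). In the damage checkpoint gene Mdc1, position 35995564 on chromosome 17 had 34.8% and 67.7% treated and 15.5% and 0% untreated. That call (adjusted p = 0.0385) was lost without the second treated or the second untreated library, with adjusted p-values of up to 0.211. The long duplexes of Mad2l1, which acts in the spindle checkpoint, and of Rpa1, part of the complex that coats single-stranded DNA, had 27 of 59 sites higher and 1 lower. The 27 became 16 with treated library 2 left out, and 17 and 15 with untreated library 1 or 2 left out. In Rpa1, position 75114512 on chromosome 11 had 51.5% and 51.6% treated and 1.02% and 0.917% untreated (adjusted p = 0.00101), while 75114502, 10 bases away, had 37.4% and 36.1% treated and 28.6% and 30.3% untreated (adjusted p = 0.721).

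RNA-binding and nucleolar genes had 37 of 77 sites higher and none lower, with a median difference of 5.47 points. Fubp3 had 67.6% and 71.7% edited reads in treated cells and 0% and 0.641% in untreated cells at chromosome 2 position 31471414 (adjusted p = 0.000301). Nup155, a nuclear pore subunit, had 65.9% and 68.7% treated and 11.6% and 12.3% untreated at chromosome 15 position 8109489 (adjusted p = 0.00422). Nucleolin, Ncl, had 60.8% and 39.5% treated and 0.459% and 10.5% untreated at chromosome 1 position 88244395 (adjusted p = 0.0204), a call lost without the first untreated library (adjusted p = 0.135). Its untreated libraries were far apart relative to their mean.

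Of the cytoskeleton and adhesion sites 25 of 33 rose, and 18 of these lie in Iqgap1 alone. Rhoa, a small GTPase that drives stress fibre formation, had a single tested site, at chromosome 9 position 108239461, with 65.3% and 68.6% edited reads with interferon and 0.816% and 1.43% without it (adjusted p = 3.62e-05). Nrp1, a semaphorin and VEGF coreceptor, had 63.6% and 69.1% treated and 1.86% and 1.06% untreated at chromosome 8 position 131028073 (adjusted p = 0.000424). The filamin gene Flna of the same list had no site called. Among metabolic and mitochondrial genes 27 of 46 sites rose, with a median difference of 12.7 points. Car5b, a mitochondrial carbonic anhydrase, had 55.0% and 60.2% treated and 0.775% and 4.69% untreated at chromosome X position 160415919 (adjusted p = 0.00120). Cds2, an enzyme of phospholipid synthesis, had 64.4% and 76.0% treated and 6.16% and 10.4% untreated at chromosome 2 position 132135405 (adjusted p = 0.00180).

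The list of interferon pathway and response genes, which is not complete, gave little to read: 2 of its 29 genes had tested sites. The 13 of 21 sites that rose are all in Slfn5, and none of the 6 sites of Ifnar1, a subunit of the type I interferon receptor, was called. At the Ifnar1 intron site with the greatest change, chromosome 16 position 91490679, the libraries disagreed within both groups, with 0% and 18.4% treated and 6.79% and 0% untreated (adjusted p = 0.677).

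By site class, the 3′ UTR held most of the tested sites, 992 of 1223, and most of the calls. Over all tested sites 40.4% rose. Of 992 tested 3′ UTR sites 440 rose (44.4%, in 91 loci) and 7 fell, with a median difference of 6.05 points. Their mean level was 14.4% and 16.1% in treated libraries and 3.39% and 3.12% in untreated libraries. Of 98 intronic sites 17 rose (17.3%) and none fell, with means of 6.09% and 6.73% treated and 3.20% and 3.26% untreated. The count of 17 was 11 without the first and 6 without the second untreated library. Of 72 intergenic sites 28 rose (38.9%) and none fell, and 18 rose without the first untreated library. The 26 sites in noncoding RNAs included 5 that rose, or 3 without the second untreated library. Of 33 coding sites 3 rose, 2 of 26 nonsynonymous and 1 of 7 synonymous. A site under 1% untreated was tested only if it was higher with interferon, so these shares hold for tested sites. Tested were 22.7% of 4371 covered 3′ UTR sites, 10.9% of 899 intronic and 8.94% of 805 intergenic ones. With the minimum set on untreated libraries alone, 123 of 534 3′ UTR, 0 of 61 intronic and 2 of 19 intergenic sites rose. The classes differ in untreated level and number of loci, and no test of the classes against each other was made.

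Of the 33 tested coding sites 3 rose and none fell, with a median difference of 1.28 points. Their mean level was 10.1% and 9.997% in treated cells and 7.89% and 7.93% in untreated cells, a difference of 2.13 points (SE 0.0456) to which Ccni contributed most. At the 26 nonsynonymous sites the means were 11.2% and 11.8% treated and 8.89% and 8.93% untreated (SE of the difference 0.321). At the 7 synonymous sites the groups overlap, with means of 5.97% and 3.20% treated and 4.19% and 4.21% untreated (SE 1.38). The treated libraries differ in opposite directions in these 2 sets. Their gaps offset each other in the SE over all 33 sites, which understates the spread. Over all 327 covered coding sites the mean was 1.26% treated and 1.03% untreated. The greatest difference among the tested coding sites was in Ccni, the gene of cyclin I, whose arginine-to-glycine site on chromosome 5, position 93618610, had 26.7% and 34.3% edited reads with interferon and 0.969% and 0.787% without it. That difference of 29.6 points (SE 3.81) was called (adjusted p = 0.00150) and held without any 1 library. A synonymous site 20 bases away, at 93618590, had 2.35% and 2.24% treated and 0% and 0.198% untreated (adjusted p = 0.0261), a call lost without the first untreated library (adjusted p = 0.142). In Ncstn, which encodes the γ-secretase subunit nicastrin, a serine-to-glycine site at chromosome 1 position 174004457 had 8.76% and 11.4% treated and 0 of 281 reads untreated, which allows up to 1.07%. Its call (adjusted p = 0.0123) was lost without the second untreated library (adjusted p = 0.0617).

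Other recoding sites did not pass the test. Blcap, the bladder cancer-associated protein, whose transcript is edited at several codons, had 24.7% and 27.5% edited reads with interferon and 17.4% and 12.3% without it at its tyrosine-to-cysteine site (adjusted p = 0.175). Its lysine-to-arginine site had 8.38% and 8.26% treated and 4.91% and 2.19% untreated (adjusted p = 0.114). In both, the groups did not overlap. Of the 4 tested sites in genes with ADAR1-type recoding, Blcap and Neil1, none was called.

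No recoding site of the ADAR2 type passed the test, and several had lower values with interferon. Cog3, a Golgi tethering subunit, had 86.2% and 84.97% in treated and 92.3% and 90.2% in untreated cells at its isoleucine-to-valine site (adjusted p = 0.446). Its next base, a synonymous site, had 14.2% and 10.4% treated and 25.6% and 18.6% untreated (adjusted p = 0.424). The groups did not overlap at either. At the glutamine-to-arginine site of Flna, an actin-crosslinking filamin, values were also lower with interferon. Flna had 4.51% and 4.88% treated and 7.77% and 10.3% untreated (adjusted p = 0.503). Gria3, an AMPA receptor subunit, had 32.1% and 36.2% treated and 32.4% and 34.2% untreated at its arginine-to-glycine site (adjusted p = 0.975), where the groups overlap. This was the least changed of the 3 tested sites of Gria3. The greatest difference of the 3 was a rise of 21.9 points, also without a call. In Cyfip2, a regulator of actin branching, the lysine-to-glutamate site had 7.14% and 21.7% treated and 14.3% and 14.5% untreated (adjusted p = 0.934). Cadps, a secretion regulator, had 23.0% and 8.38% treated and 3.29% and 4.45% untreated (adjusted p = 0.203). In all, 2 of the 22 tested sites in ADAR2-type genes rose, and both are in Adarb1.

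**Figure D3:**
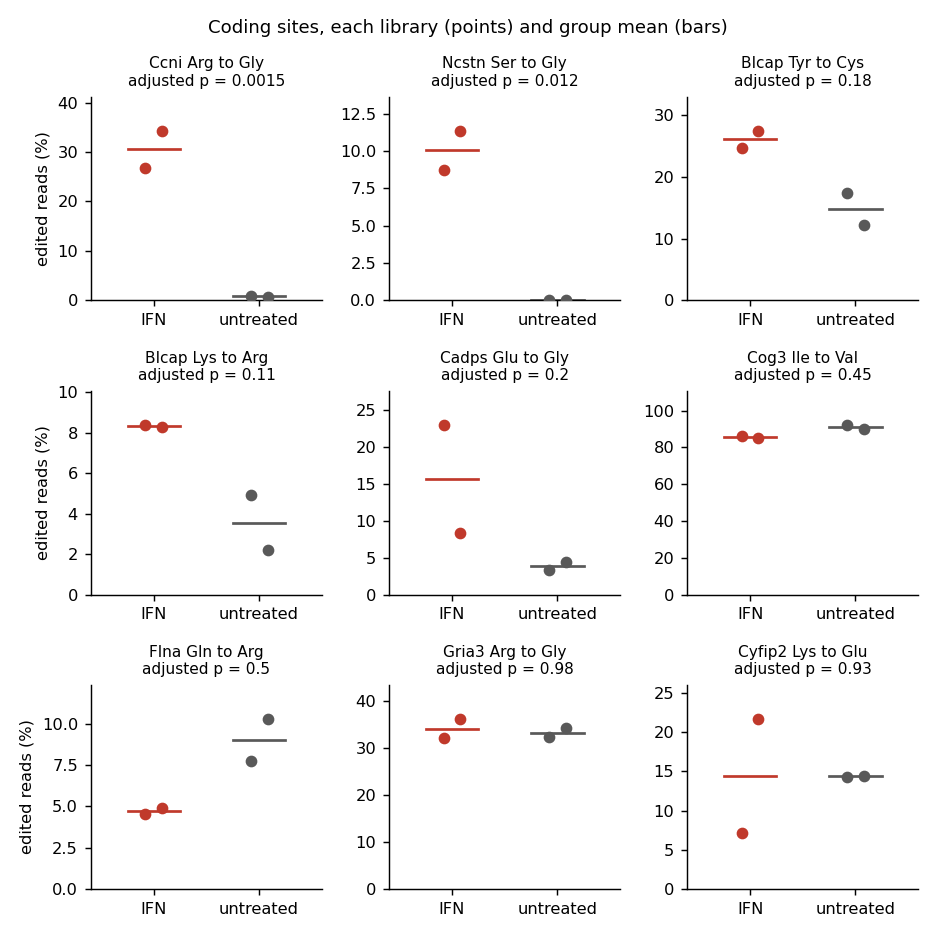
Percent of reads edited at 9 nonsynonymous sites in each library, interferon to the left and untreated to the right in each panel; points are libraries, bars are group means, and panels have their own axes starting at 0. The groups stand well apart in Ccni and Ncstn, overlap in Gria3 and Cyfip2, and are lower with interferon in Cog3 and Flna without passing the test.

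Adarb1 encodes ADAR2 and is edited by its own product in an intron. Of its 7 tested intronic sites on chromosome 10, 2 rose. Position 76786776 had 6.88% and 11.2% edited reads with interferon and 0.155% and 0.169% without it (8.89 points, SE 2.18, adjusted p = 2.35e-05), with at least 6285 reads in each library. Position 76786840 had 3% and 1.65% treated and 0.247% and 0.282% untreated (adjusted p = 0.00577). Between them, 76786805 had 13.1% and 22.2% treated and 14.1% and 19.7% untreated (adjusted p = 0.969), so its groups overlap. This last site was picked out after its values were seen. The 2 sites, 29 bases apart, were not tested against each other.

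The intron with the most sites higher was that of Specc1, a coiled-coil protein gene, with 5 of 10 tested sites. Its position 61954893 on chromosome 11 had 26.7% and 16.6% edited reads in treated cells and 0.444% and 0% in untreated cells (21.4 points, SE 5.09, adjusted p = 0.00162). Of the noncoding RNAs, 4933404O12Rik held sites 137410856 and 137410858 on chromosome 5. The first had 34.3% and 29.0% treated and 0.339% and 0% untreated (adjusted p = 0.000407), and the second 34.5% and 28.9% treated and 1.02% and 0.622% untreated (adjusted p = 0.000252). Another site of this RNA, 137410876, had 11.2% and 0.454% treated and 0.17% and 0.266% untreated (adjusted p = 0.0467, and up to 0.132 without 1 library), so only the first treated library was high there.

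Between genes, the site with the highest treated mean lies on chromosome 13, in a locus where 7 of 10 tested sites rose and the median treated level was 4.55%. Position 64391666 had 59.0% and 69.6% edited reads with interferon and 3.82% and 3.40% without it (60.7 points, SE 5.30, adjusted p = 0.000398). Over the 72 intergenic sites the treated libraries disagreed, with means of 8.26% and 18.6%, against 0.595% and 1.14% untreated. The locus on chromosome 1 around position 180882378 shows the extreme, with 0% and 97.0% treated and 0.725% and 0% untreated (adjusted p = 0.152). The files give no strand for intergenic sites.

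Sites were also described by their untreated level. Most covered sites had little editing in the untreated libraries, and the median difference was 0 points over the 2171 sites with no edited read in either untreated library and 0.013 points over the 4080 sites above 0 to 1%. A site at these levels enters the test only if it is high with interferon, so the 103 of 175 and 249 of 485 tested sites that rose there are no measure of how often such sites respond. From 1 to 5%, 359 of 456 covered sites were tested, 102 rose and 4 fell, and the median difference over all 456 was 0.91 points. All covered sites above 5% were tested. From 5 to 20%, 37 of 172 rose and 3 fell, with a median difference of 10.4 points. From 20 to 50%, 2 of 27 rose and 1 fell, with a median of 15.4 points. Above 50% there were 5 tested sites, 1 of which rose. Expressed as the share of the unedited reads that were edited after treatment, the medians were 11.4% at 5 to 20% and 21.7% at 20 to 50%.

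The untreated level is part of the difference, so the bins are a description. When sites were binned by the first untreated library and the difference was taken from the second, the medians over tested sites were 8.20 points at 5 to 20% and 15.4 points at 20 to 50%. The counts were less stable: the 249 fell to 147 and 137 without the first and the second untreated library, the 102 to 52 and 54, and the 37 to 22 and 22.

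**Figure D4:**
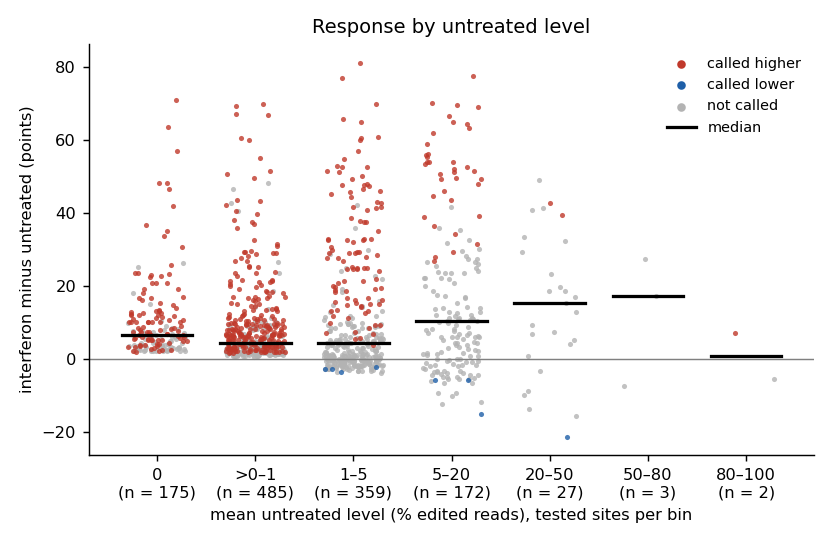
Interferon minus untreated level (percentage points) at the 1223 tested sites by mean untreated level (percent of reads edited), with the number of sites per bin; red points were called higher, blue lower, grey neither, and black bars are medians. Below 1% untreated the minimum level admits only sites that are higher with interferon, so the medians there are set by it; they are 10.4 points at 5 to 20% and 15.4 points at 20 to 50%, and the 8 sites called lower started between 1 and 50%.

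Sites silent in untreated cells that reached high levels with interferon included some with wide replicate error. In Rpa1, position 75114487 had 46.5% and 50% edited reads in treated cells and 0 of 207 reads in untreated cells, which allows up to 1.45% (48.2 points, SE 1.77, adjusted p = 0.000714). In Coq3, an enzyme of ubiquinone synthesis, position 21838456 on chromosome 4 had 36.7% and 90.7% treated and 0 of 677 reads untreated, which allows up to 0.443% (adjusted p = 0.000407). Dagla, a diacylglycerol lipase gene, had 6.98% and 86.2% treated and 0 of 450 reads untreated, up to 0.667%, at chromosome 19 position 10320223 (adjusted p = 0.00498). Cdh1, the gene of E-cadherin and an epithelial marker, had 28.2% and 68.2% treated and 0 of 412 reads untreated, up to 0.728%, at chromosome 8 position 109192620 (adjusted p = 0.000670). In Coq3 and Dagla the size of the rise depends on the library, with standard errors of 27.0 and 39.6 points, while both treated libraries lay above both untreated ones.

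At the other end, 3 sites that began at 20% or more still rose. Mad2l1 at chromosome 6 position 66490075 had 63.1% and 79.2% edited reads with interferon and 29.9% and 33.3% without it (adjusted p = 0.0415). Ovca2 at chromosome 11 position 74989846 had 72.2% and 57.3% treated and 27.9% and 16.2% untreated (adjusted p = 0.0245). Rpa1 at 75114517 had 99.0% and 100% treated and 93.9% and 90.8% untreated (adjusted p = 0.0333). Mad2l1 and Rpa1 lost the call without the second treated library or either untreated one, with adjusted p-values of up to 0.170 and 0.167. Ovca2 lost it when treated library 1 or untreated library 2 was left out (up to 0.148).

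The 8 sites that fell were all low with interferon, and only 1 kept its call whichever library was left out. That site, in the 3′ UTR of the unnamed transcript uc009bto.2 at chromosome 6 position 47897588, had 0% and 0.377% edited reads in treated cells and 15.0% and 15.8% in untreated cells (-15.2 points, SE 0.409, adjusted p = 0.00178). Another site of this transcript, 47897595, had 0% and 79.5% treated and 26.7% and 15.8% untreated, so the treated libraries disagreed there. In 2900026A02Rik, position 113517027 had 0.645% and 0.599% treated and 17.7% and 26.1% untreated (adjusted p = 0.0130), a call lost without the second untreated library (adjusted p = 0.0532). The others were Mad2l1 at 66490184, with 2.93% and 3.09% treated and 10.5% and 7.03% untreated, Zfp324, Il7r, uc008iss.1, uc009qeo.1 and a second site of uc009bto.2. These 6 had adjusted p-values of 0.0231 to 0.0465, and leaving out a library raised them to between 0.0888 and 0.173. The call was lost without either treated library in uc008iss.1 and uc009bto.2, the first treated in uc009qeo.1, the second treated in Il7r, the second treated or either untreated in Zfp324, and any of the 4 in Mad2l1. The uc008iss.1, uc009bto.2, uc009qeo.1 and Il7r sites were tested in 3 of the 4 fits that leave out a library. Over all tested sites the count of 8 was 13 without the first treated library.

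No site was called in 87 of the 206 tested loci, 10 of which had 5 or more tested sites. A missing call does not show a missing response. In Tet1, a DNA demethylation enzyme gene picked out after its values were seen, the differences at the 2 tested sites were 26.3 and 29.8 points without a call, and the treated libraries disagreed. At chromosome 10 position 62272511 they had 5.26% and 59.5% treated and 1.65% and 3.60% untreated (adjusted p = 0.0965). Zkscan3, a zinc finger gene with 7 tested intronic sites, had the most, and at its position 21481802 on chromosome 13 the levels were 5.53% and 11.6% treated and 1.83% and 3.53% untreated (adjusted p = 0.206), without overlap. All 7 of its tested sites, of 36 covered, had a higher mean with interferon, a direction that the minimum level favours. Dclre1c, which encodes the nuclease Artemis, had 8.19% and 5.88% treated and 20% and 19.1% untreated at chromosome 2 position 3377650 (adjusted p = 0.259), without overlap and without a call. An intron site of Fnbp1 at chromosome 2 position 30885904 stood at 28.8% and 26.1% treated and 23.8% and 23.1% untreated (adjusted p = 0.825).

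The same 494 sites were then read in the other lines, where the genotype could be set beside the wild-type response. Their median level in wild-type cells was 12.3% with interferon and 0.313% without it, values that chose them. In ADAR2-null cells the medians were 6.84% treated and 0.338% untreated, in STAT2-null cells 0.505% and 0.467%, in p150-knockout cells 0.288% and 0.260%, and in ADAR1-null cells 0.197% and 0.171%. STAT2 is a transcription factor of type I interferon signalling. A median of this kind has no error over cultures, and the lines differ in how many of the sites they cover, from 411 to 494.

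The difference between responses was tested in the same fit. The wild-type rise was larger than that of STAT2-null cells at 141 of 1026 sites (13.7%) and smaller at 1 (0.0975%). Against p150-knockout cells it was larger at 144 of 839 sites (17.2%) and smaller at none by edgeR, or 281 and 4 sites by unadjusted p-values under 0.05. Against ADAR2-null cells the wild-type rise was larger at 1 of 1146 sites and smaller at 1 other (0.0873% each), or at 58 and 63 by unadjusted p. That last count ran from 1 to 9 when single wild-type libraries were left out. A count this low does not show that the responses are alike. The 3 comparisons share the wild-type libraries.

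Named sites gave the sizes. At Iqgap1 87857170 the levels were 21.8% treated and 0.732% untreated in wild type, 0.157% and 0.243% in STAT2-null cells (adjusted p of the difference in response = 0.000237) and 0.431% and 0.377% in p150-knockout cells (adjusted p = 0.00120). In ADAR2-null cells they were 1.59% and 0.412%, and that difference in response was not called (adjusted p = 0.127). At Adarb1 76786776 wild type had 9.05% treated and 0.162% untreated, STAT2-null cells 0.857% and 0.271% (adjusted p = 0.0115) and p150-knockout cells 0.195% and 0.0882% (adjusted p = 0.00769). Gnl3l 147420072 had 64.9% treated and 8.79% untreated in wild type and 67.4% and 2.89% in ADAR2-null cells (adjusted p = 0.531). The site with a larger wild-type than ADAR2-null rise was in Lsm11, a component of the histone mRNA processing complex, at chromosome 11 position 45744086. It had 7.38% and 19.0% treated and 0% and 0.164% untreated in wild type, against 0.0613% and 0.215% treated and 0.497% and 0.198% untreated in ADAR2-null cells (adjusted p = 0.0177). For Ccni the difference in response between wild-type and STAT2-null cells was not called (adjusted p = 0.178), although its site had 30.5% treated and 0.878% untreated in wild type and 0.147% and 0.144% in STAT2-null cells.

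**Figure D5:**
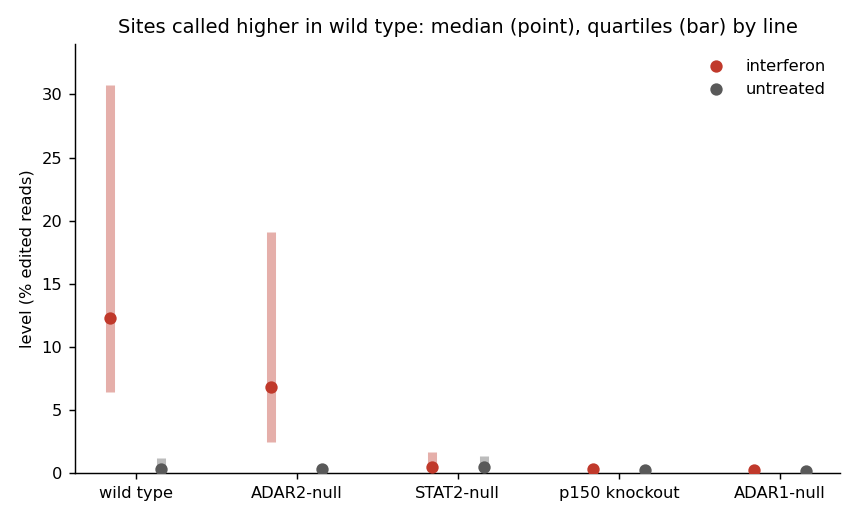
Median (points) and quartiles (bars) of the editing level (percent of reads edited) over the sites called higher in wild-type cells, by line, with interferon to the left of untreated. The treated median is 12.3% in wild type, by which the sites were chosen, and 6.84% in ADAR2-null cells, while both medians of the other lines lie below 1%.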

How the data were processed

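RNA editing was measured by sequencing pooled RT-PCR amplicons. Per the submitters' processing notes, BWA and SAMtools were used on the mm9 mouse genome, and no version or filter is given. Each library's deposited table lists the same 48425 sites. Per the file headers, each row gives a coverage count, an edited-read count and an editing level as a fraction, with gene, region and strand. Levels were recomputed from the deposited counts. Positions are printed as deposited; whether they start at 0 or 1 is not stated.

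Sites had at least 50 reads in all 4 wild-type libraries, and tested sites a mean level of at least 1% over these. For the comparisons between lines both minimums ran over the libraries of both lines. Edited and unedited counts of all 20 libraries, 1 coefficient per group, were fitted with edgeR 4.0.16 (modelMatrixMeth, glmQLFit, glmQLFTest; R 4.3.3), two-sided, with Benjamini-Hochberg adjustment. limma 3.58.1 on log2((edited + 0.5)/(unedited + 0.5)) was an alternative, beside other coverage and level minimums, the wild-type libraries alone, single libraries left out and a replicate block. The scripts were tested on simulated data. The lowest coverage behind a call was 53 reads, and the median over tested sites was 432 reads per library. A level of 0 is given with the limit that 3 edited reads would set, for counting error only. No batch is named in the labels. Replicates of a group differed beyond read counting noise (chi-square per degree of freedom 24.2 treated, 10.3 untreated) and were kept as 2 samples.

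Members, lists and rules were chosen with earlier results of these data known. Named sites follow a rule: the 12 genes with most sites higher (11 named), the top called sites of each class other than 3′ UTR, all coding sites, sites of high or 0 untreated level, all sites lower, the genes with most tested sites and no call, and the most changed site of each listed gene. Neighbouring sites printed beside a named one were chosen after their values were seen. A few items are not reported here. Of 188 tested gene names 146 matched RefSeq symbols, 14 a synonym and 28 none. No mm9 genome was used, so no sequence is shown. Python 3.11.15, pandas 2.3.3, numpy 2.4.6 and matplotlib 3.10.9 made the tables and figures.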

Additional observations from a re-analysis of the deposited data

Results flagged for a closer look

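The wild-type response to interferon differed from that of another line, by the test of the difference in response (edgeR's quasi-likelihood test, Benjamini-Hochberg adjustment), at 2 sites against ADAR2-null cells, 142 against STAT2-null cells and 144 against p150-knockout cells. The minimum level, a mean over both lines, favours sites with a large wild-type rise. Named sites outside the 3′ UTR, and named sites of lower level with interferon, are given here with the wild-type minus the other line's response in points. The noncoding RNA 4933404O12Rik at 137410856 responded by 31.2 points more than in STAT2-null and 31.4 points more than in p150-knockout cells (adjusted p = 0.0110 and 0.0124). The intergenic site on chromosome 13 at 64391666 responded by 61.2 and 60.3 points more than in those lines (adjusted p = 0.00612 and 0.0461). Adarb1 at 76786776 responded by 8.31 and 8.79 points more (adjusted p = 0.0115 and 0.00769), and the Specc1 intron site at 61954893 by 22.1 points more than in STAT2-null cells (adjusted p = 0.0141). Blcap at 157383846, a coding site that was not called in wild type itself, responded by 6.07 points more than in p150-knockout cells (adjusted p = 0.0111).

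The uc009bto.2 site at 47897588 ran the other way. Its wild-type response was below that of ADAR2-null cells (-23.7 points, adjusted p = 0.0101) and of STAT2-null cells (-18.0 points, adjusted p = 0.0141). It had 0% and 0.377% edited reads with interferon and 15.0% and 15.8% without it in wild type, against 8.35% and 9.09% with and 0.272% and 0.258% without interferon in ADAR2-null cells.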

How the results depend on the processing

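Of the 115 named sites 62 were called, and some of these lost the call without some 1 wild-type library. Direction was read from mean levels and could not change at the called named sites, so it says nothing about stability. Other fits and minimums left the levels of a site as they were. At these sites the treated and untreated libraries did not overlap, so leaving out 1 library could not reverse the difference. With 2 libraries a group and levels that vary between treated libraries, the counts depend on where the spread is estimated. Fitting the wild-type libraries alone called 109 sites (109 higher, 0 lower by edgeR), and 17 of the 62 named calls remained. By class these were 99 in 3′ UTRs, 6 intergenic, 1 intronic, 2 in noncoding RNAs, 1 coding and 0 in 5′ UTRs. By untreated level they were 6 at 0%, 71 above 0 to 1%, 21 at 1 to 5%, 11 at 5 to 20%, 0 at 20 to 50% and 0 above 80%. limma called 563 sites, 555 higher and 8 lower. The replicate numbers give 2 pairs and nothing says they pair cultures (the deviations of same-numbered libraries correlated at -0.012). The replicate block called 494 sites (485 higher, 9 lower), with 1 higher at 20 to 50% untreated and 0 above 80%. It called 17 sites whose response differed from ADAR2-null cells and 83 from p150-knockout cells.

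Minimums moved the counts by construction. No minimum level gave 3 higher sites in 5′ UTRs, 1 at 20 to 50% and 0 above 80%, and a mean difference of 1.96 points over all sites. A minimum of 5% left 3 sites lower and, higher, 18 intergenic, 4 intronic, 2 in noncoding RNAs, 57 at 0%, 115 above 0 to 1%, 5 at 20 to 50% and 1 at 50 to 80%, with a mean difference of 21.0 points. With 1% required in untreated libraries 132 sites were called, 125 higher: 123 in 3′ UTRs, 2 intergenic and 0 intronic, noncoding, coding or 5′ UTR, of which 2 had above 0 to 1% and 1 had 20 to 50% untreated. A coverage minimum of 100 gave 0 above 80%, and one of 20 gave 1 at 20 to 50% and 2 above 80%. Binning by the first untreated library put 167 risen sites at 0%. Edited reads over all reads gave 9.44 points and a mean over loci 8.47 points, against 10.9.

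Without 1 wild-type library the ranges were 8 to 13 sites lower; higher, 18 to 39 intergenic, 6 to 20 intronic, 3 to 7 noncoding and 0 to 1 in 5′ UTRs. By untreated level they were 137 to 262 above 0 to 1%, 52 to 102 at 1 to 5%, 22 to 37 at 5 to 20%, 0 to 2 at 20 to 50% and 0 to 1 above 80%. The mean difference ran from 10.1 to 12.8 points. Differences that changed sign, none of them called, ran from -1.47 to 1.199 (mean of 5′ UTR sites), -14.6 to 8.21 (Ncl 88245381), -1.49 to 1.23 (uc008wxi.1 31475854), -3.39 to 15.0 (Ifnar1 91490679), -7.47 to 3.85 (Gla 131123873), -2.09 to 0.45 (Neil1), -7.23 to 7.30 (Cyfip2), -0.22 to 1.11 and -1.12 to 0.15 (Ppwd1 105018748 and 105018751), -0.038 to 0.82 (Cog3 76119531), -3.77 to 10.8 (Son 91656378), -1.22 to 2.90 (Gria3 39007429) and -29.1 to 1.70 points (Flna 71471989).

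Sites whose response differed from ADAR2-null cells numbered 1 to 9 without 1 wild-type library, 0 with both lines alone, 5 by limma and 11 with no minimum level. From STAT2-null cells they numbered 74 with both lines alone and 260 by limma, and from p150-knockout cells 41, 289 and, with no minimum level, 86. The cause of these shifts was not tested. A level under about 1% rests on few edited reads at the median coverage of 432, and small differences there were not detectable.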

Other observations

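Reads per locus are not a measure of expression here, since products of a multiplex PCR were pooled, but they can be listed. Over the 312 loci the log2 ratio of treated to untreated reads per 1000000 had a median of -0.04. It was above 1 at 2 loci and below -1 at none. The 2 loci were AI607873, whose RefSeq symbol is Ifi207 and which belongs to an interferon-induced gene family, and Slfn5. AI607873 had 236 and 484 reads per 1000000 in treated and 106 and 119 in untreated wild-type cells (log2 ratio 1.68). Slfn5 had 167 and 152 treated and 62.9 and 51.3 untreated (log2 ratio 1.48). In STAT2-null cells the values were 155 and 139 treated and 158 and 135 untreated for Slfn5, and 195 and 182 treated and 194 and 177 untreated for AI607873. In p150-knockout cells Slfn5 had 0.911 and 153 treated and 0 and 0.394 untreated, so its treated libraries disagreed, while AI607873 had 947 and 610 treated and 235 and 271 untreated. In ADAR2-null cells Slfn5 had 154 and 157 treated and 86.9 and 166 untreated, and AI607873 had 278 and 229.7 treated and 173 and 210.1 untreated. In ADAR1-null cells Slfn5 had 176 and 133 treated and 42.5 and 0 untreated, and AI607873 had 407 and 401 treated and 36.2 and 308 untreated. No test was made of these values.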
